A study of Mus musculus with 6 samples.

Results

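The genes described are 10 of the NF-kappa B system, taken by symbol: the 5 subunit genes Nfkb1, Nfkb2, Rel, Rela and Relb, the inhibitor genes Nfkbia and Tnfaip3, and the target genes Traf1, Birc3 and Icam1. All 10 were found among the 22298 genes listed in the deposited tables, and all 10 passed the filter on low counts with 14121 genes in total. RNA came from thymocytes labelled double-negative, the T cell precursors that carry neither CD4 nor CD8, sorted from C57BL/6 mice without treatment. One genotype was Toxf/fPdcd1Cre, in which Tox is flanked by recombination sites and a Cre recombinase named for Pdcd1 is present, with replicates 1 and 2 at 3 weeks and replicate 3 at 4 weeks of age. The controls were Toxf/f, which carry the same flanked Tox without the Cre, at the same ages.

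Both genotypes had 3 samples, but the files of Toxf/f replicates 1 and 2 held the same values in every gene, under a column headed with the number 2, and were counted as 1 library. The comparison is therefore of 3 Toxf/fPdcd1Cre with 2 Toxf/f libraries, and the library of replicates 1 and 2 is called the shared Toxf/f library below. The labels do not say which cells the Cre acts in, whether mice were pooled or whether samples came from separate mice, and p-values therefore reflect no more than the spread among these 5 libraries. Counts summed to between 14245492 and 16199195 per library. Tox fell to 14.5% of its Toxf/f level, with 281, 257 and 201 counts in Toxf/fPdcd1Cre against 1896 and 1746 counts in Toxf/f libraries. The titles speak of double-negative cells and the protocol of their second stage, while Cd8a and Cd4 ranked 26 and 105 of all genes by mean level, which goes against libraries of double-negative cells alone. Toxf/fPdcd1Cre replicate 1 had 1 count of the chromosome Y gene Ddx3y, against 843 to 1354 in the other libraries.

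NF-kappa B is a family of DNA-binding dimers held in the cytoplasm until a receptor signal releases them. In the classical arm, kinases mark the inhibitor I-kappa B alpha, the product of Nfkbia, for destruction, and dimers that contain RelA or c-Rel enter the nucleus. In the alternative arm, receptors of the TNF receptor family lead to processing of the Nfkb2 product, which then works with RelB. Several family members and inhibitors are themselves target genes, so that the system feeds back on its own components. In the thymus the pathway is known both in developing T cells and in the medullary epithelium and dendritic cells that present self-antigens.

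Stretches of DNA just before the transcription start were examined for the kappa B consensus motif, the sequence that NF-kappa B dimers bind, because several of these genes moved together. RefSeq promoter sequences on GRCm38.p6 were matched by symbol for 8 of the 10 genes. Nfkb1 and Relb are named only. In the 250 bases before the start, searched on both strands, 6 of the 8 genes held at least 1 match in at least 1 start: Icam1, Nfkb2, Nfkbia, Rel, Rela and Tnfaip3. Of 27025 genes with such a window, 25.6% held one. The windows below are those of 2 subunit genes that fell and hold matches, of Nfkbia, 1 of the 2 inhibitor genes that hold matches and did not pass the test, and of the target gene with the largest fall, which holds none. Capitals mark matches of the consensus on either strand, and overlapping matches form 1 block.
Nfkb2, chr19:46304487-46304736, plus strand: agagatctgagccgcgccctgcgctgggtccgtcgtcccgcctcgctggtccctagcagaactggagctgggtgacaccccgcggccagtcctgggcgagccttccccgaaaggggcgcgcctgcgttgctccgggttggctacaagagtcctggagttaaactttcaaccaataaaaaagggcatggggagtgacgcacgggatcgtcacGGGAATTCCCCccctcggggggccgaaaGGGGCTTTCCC
Rel, chr11:23770970-23771219, minus strand: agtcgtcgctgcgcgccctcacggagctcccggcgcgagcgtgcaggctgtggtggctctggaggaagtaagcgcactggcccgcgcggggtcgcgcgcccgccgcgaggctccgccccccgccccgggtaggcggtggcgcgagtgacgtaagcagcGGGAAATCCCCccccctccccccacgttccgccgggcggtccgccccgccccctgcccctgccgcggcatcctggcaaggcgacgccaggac
Nfkbia, chr12:55492648-55492897, minus strand: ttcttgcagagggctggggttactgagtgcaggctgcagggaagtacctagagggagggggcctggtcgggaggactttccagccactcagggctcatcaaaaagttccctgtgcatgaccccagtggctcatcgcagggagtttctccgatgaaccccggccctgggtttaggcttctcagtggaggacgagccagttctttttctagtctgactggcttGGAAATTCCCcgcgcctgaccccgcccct
Traf1, chr2:34961773-34962022, minus strand: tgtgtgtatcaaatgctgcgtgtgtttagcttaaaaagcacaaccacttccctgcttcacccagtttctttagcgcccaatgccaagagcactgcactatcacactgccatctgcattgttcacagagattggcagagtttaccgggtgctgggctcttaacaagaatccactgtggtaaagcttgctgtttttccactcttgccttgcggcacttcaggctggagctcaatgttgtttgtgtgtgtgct

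In the first Nfkb2 window, 4 overlapping matches formed 2 blocks, which began 39 and 11 bases before the start. The other listed starts of Nfkb2 had matches that began 236, 225 and 110 bases before them. The Rel block began 92 bases and the Nfkbia match 29 bases before the start. Icam1 and Rela each held 1 match, which began 120 and 218 bases before the start, and neither Traf1 nor Birc3 held one in this window. A match is a run of letters and not evidence of binding, and no match says only that these letters are not in this window.

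The first question is whether transcripts of the family and its targets differ between thymocytes of the genotypes when Tox is targeted. Several of the genes were lower in Toxf/fPdcd1Cre libraries: the subunits Nfkb2, Rel and Relb and the targets Traf1 and Icam1. Relb, the subunit of the alternative arm, fell 2.17-fold, and Traf1, a signalling adaptor of TNF receptors, fell 2.82-fold. The subunits Nfkb1 and Rela, both inhibitors and Birc3 did not pass the test. In counts, 5 of 10 were lower and 0 higher at an adjusted p under 0.05 (edgeR, quasi-likelihood F test), against 1.51% lower, 0.135% higher and 1.64% in either direction of all 14121 tested genes. At an unadjusted p under 0.05, 7 of 10 were lower and 0 higher, against 7.26% lower and 3.08% higher of all tested genes, and DESeq2 likewise called 5 lower and 0 higher. The log2 fold changes, Toxf/fPdcd1Cre minus Toxf/f, ran from -1.49 to -0.02 with a median of -0.57, beside a median of 0.03 over all tested genes. Every Toxf/fPdcd1Cre library lay below every Toxf/f library for 7 of the 10 genes, which was so for 13.5% of tested genes, and above for 0 of the 10, against 12.6%. In RNA of a mixed sample, fewer cells of a type and less RNA per cell cannot be told apart.

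The calls rested on both Toxf/f libraries. Without the shared Toxf/f library 1 of the 10 genes was called lower, Rel, and without Toxf/f replicate 3 none was, when 49 and 31 genes were called in all. Without Toxf/fPdcd1Cre replicate 1 the same 5 genes were called, without replicate 2 all but Nfkb2, and without replicate 3 only Relb and Traf1. All 10 log2 fold changes were below 0 in each of these 5 fits except that of Rela, which was above 0 in 1 of them.

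**Figure D1:**
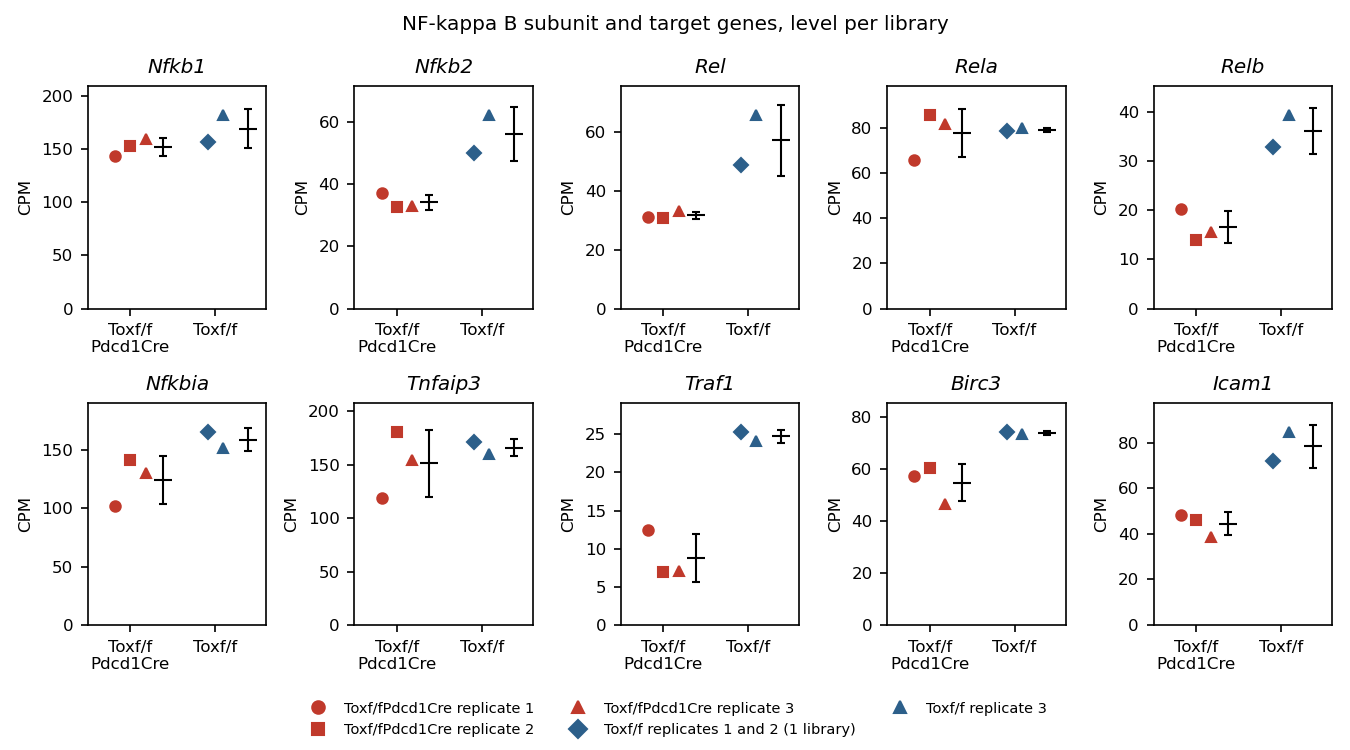
Level of each of the 10 genes in CPM (read counts scaled to library size, y axes from 0), with 3 Toxf/fPdcd1Cre libraries in red and 2 Toxf/f libraries in blue; black lines give the mean and SD. The groups overlap for Nfkb1, Rela and Tnfaip3, and for the other 7 genes every red point lies below every blue one.

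Relb, on chromosome 7 from 19606217 to 19629438 in GRCm38, had 20.4, 13.9 and 15.7 CPM (counts relative to the scaled library size) in Toxf/fPdcd1Cre libraries, against 32.9 and 39.5 CPM in Toxf/f libraries. All Toxf/fPdcd1Cre values lay well below the lower Toxf/f value, and replicate 1 was the highest of them. This is a log2 fold change of -1.12 ± 0.183 (SE; adjusted p = 0.0107, edgeR). Without the shared Toxf/f library the value was -1.24 (adjusted p = 0.0849) and without Toxf/f replicate 3 it was -0.98 (adjusted p = 0.252), so the call ended.

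Rel encodes c-Rel, the subunit best known in activated lymphocytes, and lies on chromosome 11 from 23736847 to 23770970. Its levels were 31.1, 30.8 and 32.9 CPM in Toxf/fPdcd1Cre and 48.5 and 65.6 CPM in Toxf/f libraries. The Toxf/fPdcd1Cre libraries were nearly alike, at 31.6 ± 1.18 CPM (SD, n = 3), while those of Toxf/f spread over 57.1 ± 12.1 CPM (SD, n = 2). The log2 fold change was -0.85 ± 0.153 (SE; adjusted p = 0.0172, edgeR). The gene was no longer called when Toxf/f replicate 3 was left out, at -0.62 (adjusted p = 0.320), nor when Toxf/fPdcd1Cre replicate 3 was, at -0.88 (adjusted p = 0.0542).

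Nfkb2, whose product is the precursor processed in the alternative arm, lies on chromosome 19 from 46304320 to 46312385. It had 37.1, 32.6 and 33.2 CPM in Toxf/fPdcd1Cre libraries, against 50.1 and 62.3 CPM in Toxf/f libraries. The groups did not overlap, and the gap between them was as wide as the distance between the Toxf/f libraries. The log2 fold change was -0.71 ± 0.146 (SE; adjusted p = 0.0329, edgeR). The call also ended with age in weeks as a covariate (adjusted p = 0.0908). It was the least stable of the calls, lost without any single library but Toxf/fPdcd1Cre replicate 1, with adjusted p from 0.0649 to 0.445 and a log2 fold change of -0.55 without Toxf/f replicate 3. Nfkb2 overlaps Psd on the opposite strand, and any use of strand in the counting is not given in the sources used here. Psd held 21, 29 and 18.5 counts in Toxf/fPdcd1Cre and 24.27 and 44 counts in Toxf/f libraries. Nfkb2 held 543, 510 and 482.5 counts in Toxf/fPdcd1Cre and 781.73 and 1035 counts in Toxf/f libraries. Counts of both genes were thus not whole in the same libraries, Toxf/fPdcd1Cre replicate 3 and the shared Toxf/f library. Whether reads were divided between them was not tested.

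The remaining subunits did not pass. Nfkb1, which encodes the precursor of the classical arm (chromosome 3, from 135584655 to 135691547), had 144, 153 and 160 CPM in Toxf/fPdcd1Cre and 156 and 182 CPM in Toxf/f libraries. Its groups overlapped in CPM, and its log2 fold change was -0.15 ± 0.131 (SE; adjusted p = 0.810, edgeR). Rela, the main activating subunit of the classical arm (chromosome 19, from 5637483 to 5648130), had 66.0, 85.8 and 82.1 CPM in Toxf/fPdcd1Cre and 78.6 and 79.997 CPM in Toxf/f libraries. The Toxf/f values sat inside the range of the Toxf/fPdcd1Cre values, and the log2 fold change was -0.02 ± 0.145 (SE; adjusted p = 0.984, edgeR).

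Because subunits differ in length, their shares were compared on FPKM, the deposited fragment values scaled for gene length and depth. The FPKM of the 5 subunit genes summed to 100.1, 98.6 and 103 in Toxf/fPdcd1Cre and to 125 and 141 in Toxf/f libraries. Of these sums Nfkb1 made up 48.4%, 47.6% and 49.3% in Toxf/fPdcd1Cre and 45.6% and 42.5% in Toxf/f libraries. The share of Relb was 9.86%, 6.38% and 7.14% in Toxf/fPdcd1Cre and 12.4% and 13.3% in Toxf/f libraries, and that of Rela 25.5%, 32.1% and 29.8% in Toxf/fPdcd1Cre against 23.8% and 23.3% in Toxf/f libraries. Each of these shares lay apart between the genotypes, with Nfkb1 and Rela higher and Relb lower in Toxf/fPdcd1Cre libraries. Shares are parts of a whole, so lower shares of some subunits mean higher shares of others. The levels of Nfkb1 and Rela themselves were not higher, with log2 fold changes of -0.15 and -0.02. Unlike its CPM, the FPKM of Nfkb1 did not overlap, at 48.5, 46.9 and 50.6 in Toxf/fPdcd1Cre and 56.9 and 60.2 in Toxf/f libraries. Nfkb1 did not pass on log2(FPKM + 1) either (adjusted p = 0.432, limma). Rel made up 4.28%, 4.05% and 4.11% in Toxf/fPdcd1Cre and 5.27% and 6.42% in Toxf/f libraries, and Nfkb2 11.9%, 9.87% and 9.68% in Toxf/fPdcd1Cre and 12.9% and 14.4% in Toxf/f libraries.

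**Figure D2:**
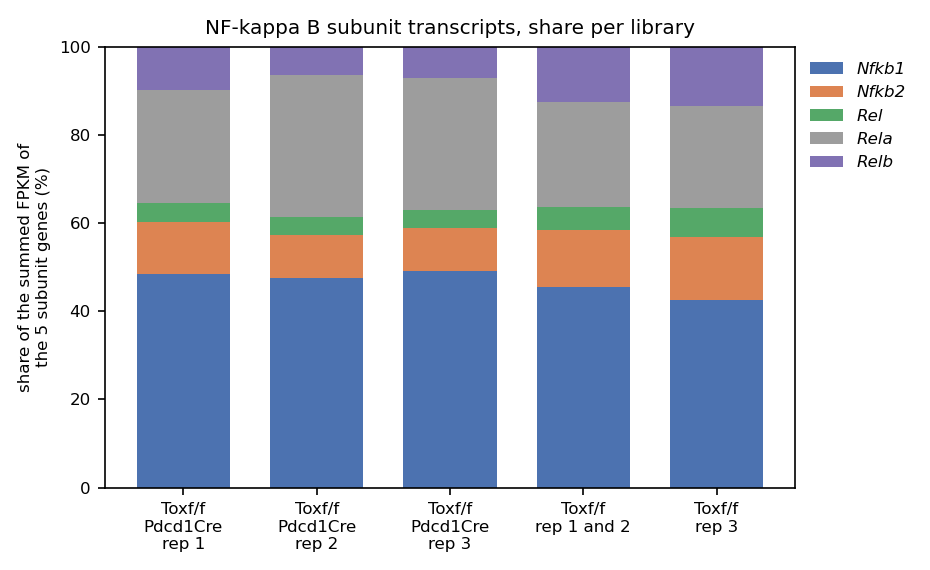
Share of each subunit gene in the summed FPKM of the 5 subunit genes (y axis, percent), for 3 Toxf/fPdcd1Cre libraries at the left and 2 Toxf/f libraries at the right. The part of Relb is smaller in every Toxf/fPdcd1Cre library (6.38% to 9.86%) than in the Toxf/f libraries (12.4% and 13.3%).

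Ratios within a library do not depend on how libraries are scaled to each other. The FPKM ratio of Nfkb2 to Nfkb1 was 0.246, 0.207 and 0.196 in Toxf/fPdcd1Cre and 0.284 and 0.340 in Toxf/f libraries. Rel over Rela was 0.167, 0.126 and 0.138 in Toxf/fPdcd1Cre and 0.222 and 0.276 in Toxf/f libraries. For both ratios the exact permutation p, two-sided, was 0.1, the smallest that 3 against 2 libraries allow. Relb over Rela was 0.386, 0.198 and 0.240 in Toxf/fPdcd1Cre and 0.524 and 0.574 in Toxf/f libraries, with an exact permutation p of 0.2. None of the 3 ratios overlapped between genotypes. Each sets a subunit gene called lower over one that did not pass, in the same libraries, so the ratios restate the levels above and are not separate evidence.

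The inhibitors come next. Nfkbia, the gene of I-kappa B alpha (chromosome 12, from 55489410 to 55492647), had 102, 142 and 130 CPM in Toxf/fPdcd1Cre and 166 and 151 CPM in Toxf/f libraries. Every Toxf/fPdcd1Cre value was lower, with replicate 1 lowest, but the spread within that genotype was larger than the gap between the groups. The log2 fold change was -0.35 ± 0.152 (SE; adjusted p = 0.456, edgeR). Tnfaip3, whose product removes ubiquitin chains from signalling proteins and limits the response (chromosome 10, from 19000910 to 19015657), had 119, 181 and 154 CPM in Toxf/fPdcd1Cre and 171 and 160 CPM in Toxf/f libraries. The groups overlapped, and the log2 fold change was -0.13 ± 0.167 (SE; adjusted p = 0.894, edgeR).

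Of the targets, Traf1 (chromosome 2, from 34941750 to 34961772) had 12.4, 6.89 and 7.02 CPM in Toxf/fPdcd1Cre, against 25.4 and 24.1 CPM in Toxf/f libraries. This was the largest difference of the 10 genes, and here too Toxf/fPdcd1Cre replicate 1 lay above the other libraries of its genotype. The log2 fold change was -1.49 ± 0.248 (SE; adjusted p = 0.0115, edgeR). Leaving out Toxf/fPdcd1Cre replicate 1 gave -1.87 (adjusted p = 0.00147). The call ended without the shared Toxf/f library or Toxf/f replicate 3 (adjusted p = 0.160 and 0.187).

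Icam1 encodes an adhesion molecule that binds the integrin LFA on lymphocytes and lies on chromosome 9 from 21015985 to 21028817. It had 48.5, 46.3 and 38.8 CPM in Toxf/fPdcd1Cre and 71.8 and 84.9 CPM in Toxf/f libraries. The groups were well apart, with a log2 fold change of -0.82 ± 0.148 (SE; adjusted p = 0.0178, edgeR). The call ended without the shared Toxf/f library, Toxf/f replicate 3 or Toxf/fPdcd1Cre replicate 3 (adjusted p = 0.107, 0.320 and 0.0800). With age in weeks as a covariate the adjusted p was 0.0514.

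Birc3, an inhibitor of apoptosis that also acts as a ubiquitin ligase in this pathway (chromosome 9, from 7848699 to 7873186), had 57.2, 60.5 and 46.6 CPM in Toxf/fPdcd1Cre and 74.5 and 73.4 CPM in Toxf/f libraries. Its libraries did not overlap between genotypes, yet its log2 fold change of -0.43 ± 0.145 (SE) did not pass (adjusted p = 0.246, edgeR). Its near copy Birc2 stood at -0.03 ± 0.129 (SE; adjusted p = 0.975, edgeR). Birc2 counts were whole in every library, while Birc3 had 678.02 counts in Toxf/fPdcd1Cre replicate 3 and 1163.26 in the shared Toxf/f library. Whether counting split reads between them was not tested. Not all counts of Birc3 and Nfkb2 were whole numbers. The exact permutation p on log2 CPM, two-sided, was at this design's minimum of 0.1 for Nfkb2, Rel, Relb, Traf1, Birc3 and Icam1.

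**Figure D3:**
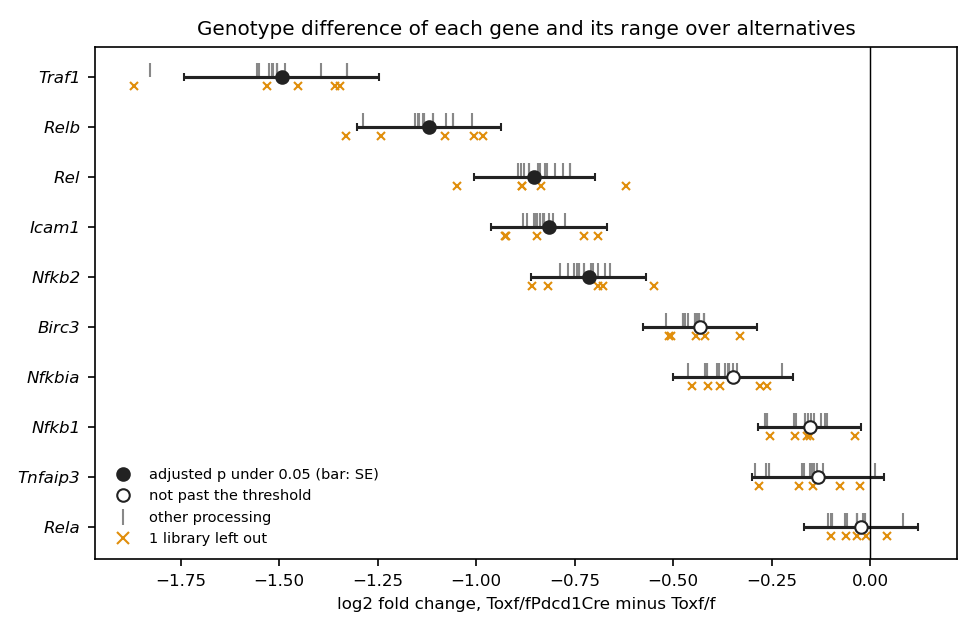
Log2 fold change (x axis, Toxf/fPdcd1Cre minus Toxf/f) of each gene, with the main value as a circle and its SE as a bar, filled where the adjusted p is under 0.05. Grey ticks are other processing and orange crosses fits with 1 library left out; only Rela and Tnfaip3 have marks on both sides of 0.

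The samples were of 2 ages, so ratios were also taken within each age. At 3 weeks, with Toxf/fPdcd1Cre replicates 1 and 2 against the shared Toxf/f library, the log2 ratio of mean CPM was -1.39 for Traf1, -0.94 for Relb, -0.65 for Rel, -0.60 for Icam1 and -0.52 for Nfkb2. At 4 weeks, with 1 library of each genotype, it was -1.78 for Traf1, -1.33 for Relb, -0.99 for Rel, -1.13 for Icam1 and -0.91 for Nfkb2. All 5 were thus lower at both ages. This had to follow for them, because every Toxf/fPdcd1Cre library lay below every Toxf/f library, so it is not separate evidence. The difference between ages was not tested. Rela was at -0.05 and 0.04, the one gene of the 10 with ratios on both sides of 0.

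Levels per length set the genes in an order. By FPKM Nfkbia stood highest, at 77.3 ± 10.3 in Toxf/fPdcd1Cre (SD, n = 3) and 103 ± 4.96 in Toxf/f libraries (SD, n = 2). Nfkb1 followed, with 48.7 ± 1.86 FPKM in Toxf/fPdcd1Cre and 58.5 ± 2.31 FPKM in Toxf/f libraries. Below them Tnfaip3, Rela and Birc3 had overlapping neighbours in Toxf/fPdcd1Cre libraries, at 34.8 ± 6.10, 29.3 ± 3.27 and 25.9 ± 1.80 FPKM. Tnfaip3 stood at 41.4 ± 0.990 FPKM in Toxf/f libraries, and Icam1 at 17.3 ± 2.53 FPKM in Toxf/fPdcd1Cre libraries. In Toxf/f libraries Birc3 and Rela each overlapped Icam1, at 35.0 ± 0.933, 31.3 ± 2.29 and 31.7 ± 4.21 FPKM. Nfkb2 and Relb overlapped in both genotypes, with 10.5 ± 1.20 and 7.83 ± 1.84 FPKM in Toxf/fPdcd1Cre and 18.3 ± 3.04 and 17.2 ± 2.36 FPKM in Toxf/f libraries. Rel and Traf1 were lowest. They overlapped in Toxf/fPdcd1Cre libraries, at 4.16 ± 0.153 and 4.08 ± 1.45 FPKM, and Traf1 lay above Rel in Toxf/f libraries, at 11.4 ± 0.453 against 7.84 ± 1.77 FPKM.

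Other genes of the pathway were compared by role, 89 tested of 93 listed. No kinase, adaptor or gene of the antigen receptor arm passed, while some nuclear inhibitors, receptors, ligands and targets fell. In all 14 of 89 were lower and 0 higher, with a median log2 fold change of -0.27, against 1.51% lower, 0.135% higher and a median of 0.03 over all tested genes. Of the 16 kinases and adaptors and the 7 genes of the antigen receptor arm none passed, with medians of -0.03 and -0.12. At an unadjusted p under 0.05 these lists held 1 higher and 0 lower gene together, and the genes nearest to a call were Tab1 at 0.33 and Tradd at 0.37 (adjusted p = 0.446 and 0.554) and Bcl10 at -0.20 and Rbck1 at 0.13 (adjusted p = 0.776 and 0.846).

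Of 10 further inhibitors and nuclear I-kappa B proteins 2 were lower and 0 higher, with a median of -0.30. Bcl3, a nuclear partner of NF-kappa B dimers, had 7.31, 5.23 and 5.37 CPM in Toxf/fPdcd1Cre and 14.7 and 18.4 CPM in Toxf/f libraries (log2 fold change -1.47, adjusted p = 0.00811, edgeR). Nfkbid, another nuclear I-kappa B protein, had 14.2, 19.8 and 21.1 CPM in Toxf/fPdcd1Cre and 35.2 and 33.8 CPM in Toxf/f libraries (log2 fold change -0.91, adjusted p = 0.0283, edgeR). Both genes lay apart between genotypes in every library.

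Receptors held 4 lower and 0 higher of 16, with a median of -0.51. All 4 are members of the TNF receptor family, as are all others on the list but Il1r1, Tlr2, Tlr4 and Tlr9. Tnfrsf4, a co-stimulatory receptor, had 1.57, 1.47 and 0.894 CPM in Toxf/fPdcd1Cre and 13.3 and 13.0 CPM in Toxf/f libraries, a log2 fold change of -3.31. Tnfrsf9 fell by 2.33, Tnfrsf18 fell by 1.00 and Tnfrsf11a, which encodes the receptor RANK, fell by 1.48 on the log2 scale (adjusted p = 0.000574, 0.0172 and 0.0202, edgeR). Neither Cd40, at -0.96, nor Tnfrsf1b, at -0.53, passed (edgeR, adjusted p = 0.165 and 0.120). Of the ligands 2 of 11 tested were lower and 0 higher, with a median of -1.05: Cd40lg, the ligand of CD40, at -2.35, and Lta, which encodes lymphotoxin alpha, at -1.86 (adjusted p = 0.0268 and 0.0277, edgeR). Tnf, with 2.94, 1.72 and 1.72 CPM in Toxf/fPdcd1Cre against 5.25 and 7.05 CPM in Toxf/f libraries, did not pass (log2 fold change -1.53, adjusted p = 0.0587, edgeR).

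Among further target genes 6 of 29 tested were lower and 0 higher, with a median of -0.68. The chemokine gene Ccl22 fell by 2.81, the chemokine receptor gene Ccr7 fell by 2.19, Ccl5 fell by 1.85 and Cxcl10 fell by 1.61 on the log2 scale. Gadd45b, a stress-response gene, was at -1.45 and Tapbp, which serves peptide loading of MHC class I, at -0.60, both past the threshold (adjusted p = 0.0208 and 0.0328, edgeR). Neither of the survival genes Bcl2l1, at 0.12, and Cflar, at -0.26, passed (edgeR, adjusted p = 0.851 and 0.561). Tnfrsf4, Tnfrsf9 and Ccr7 kept their call whichever library was left out, and the other 11 of the 14 lost it without either Toxf/f library, with adjusted p from 0.0680 to 0.305 without the shared library and from 0.0963 to 0.333 without replicate 3. Without Toxf/fPdcd1Cre replicate 3 the calls of Tnfrsf18, Tnfrsf11a, Cd40lg, Lta, Cxcl10, Gadd45b and Tapbp ended (adjusted p from 0.0575 to 0.159). With age in weeks as a covariate the calls of Nfkbid, Tnfrsf11a, Cd40lg, Lta, Gadd45b and Tapbp ended (adjusted p = 0.0651, 0.0547, 0.0514, 0.0743, 0.0547 and 0.0783). Leaving out Toxf/fPdcd1Cre replicate 2 ended those of Lta and Tapbp (adjusted p = 0.0577 and 0.0620). Once Toxf/fPdcd1Cre replicate 1 was left out, the log2 fold changes of Cd40lg, Ccl22 and Ccl5 were -3.28, -3.61 and -2.44, and 26 of the listed pathway genes were lower, against 14 with all libraries, while lower calls over all tested genes numbered 586, against 213.

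**Figure D4:**
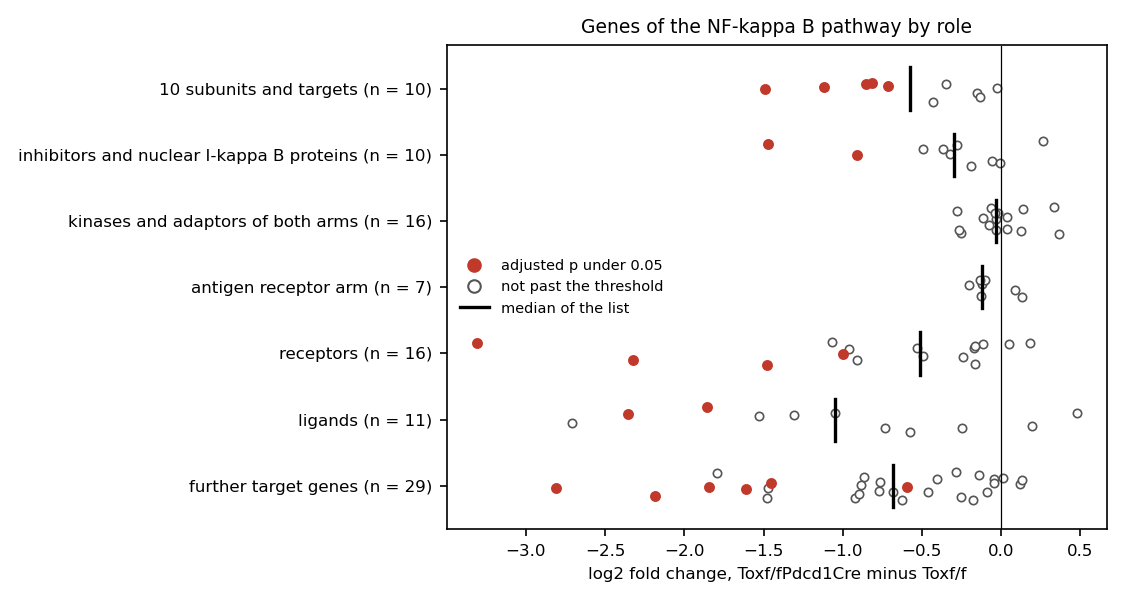
Log2 fold change (x axis, Toxf/fPdcd1Cre minus Toxf/f) of each tested gene, by role; red points passed an adjusted p of 0.05, open points did not, and black lines give the median of each list. Red points lie among the 10 genes, nuclear inhibitors, receptors, ligands and targets, all below 0, and none among kinases, adaptors and the antigen receptor arm.

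Summed markers of some other cells in the thymus were lower in Toxf/fPdcd1Cre libraries too. The summed level of 14 dendritic cell markers was 1965, 1701 and 1430 CPM in Toxf/fPdcd1Cre and 2647 and 3176 CPM in Toxf/f libraries, with 4 lower and 0 higher. Most of this sum came from MHC class II genes, among them H2-Aa, at 692, 554 and 458 CPM in Toxf/fPdcd1Cre and 828 and 1064 CPM in Toxf/f libraries. Of the 14 log2 fold changes 13 were below 0 and 1 above. Clec9a at -0.34, Siglech at -0.26 and Cd209a at 0.20 did not pass. For 12 markers of mature and regulatory T cells the sum was 621, 552 and 587 CPM in Toxf/fPdcd1Cre and 726 and 842 CPM in Toxf/f libraries, and 6 were lower and 0 higher. These sums did not overlap between genotypes. Nor did those of 10 B cell markers, at 574 to 718 CPM in Toxf/fPdcd1Cre and 798 and 970 CPM in Toxf/f libraries, with 1 lower. That gene, Igkc, had 6.83, 18.8 and 10.7 CPM in Toxf/fPdcd1Cre and 155 and 110 CPM in Toxf/f libraries. Ighm overlapped, at 499, 633 and 564 CPM in Toxf/fPdcd1Cre and 744 and 585 CPM in Toxf/f libraries. Of the 10 B cell log2 fold changes 8 were below 0 and 2 above. The sums of 10 macrophage and granulocyte markers, at 428 to 638 CPM in Toxf/fPdcd1Cre and 739 and 899 CPM in Toxf/f libraries, lay apart with 0 lower. Much of this difference was in Lyz2, at 105, 214 and 219 CPM in Toxf/fPdcd1Cre and 427 and 354 CPM in Toxf/f libraries. On that list 7 log2 fold changes were below 0 and 3 above. Of the 14 pathway genes that fell 5 also stand on these cell type lists or on that of the epithelium: Tnfrsf4, Tnfrsf18, Tnfrsf11a, Ccl22 and Ccr7.

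Foxp3, the factor of regulatory T cells, had 0.410, 0.383 and 0 CPM in Toxf/fPdcd1Cre and 7.36 and 9.76 CPM in Toxf/f libraries. On its list, mature and regulatory T cells, 9 log2 fold changes were below 0 and 3 above. Those above were Ctla4 at 0.11, Ikzf2 at 0.03 and Il2ra at 0.13, which did not pass. In thymic epithelium, Aire and Fezf2 of the medulla had 13.8, 4.28 and 3.71 CPM and 11.5, 3.77 and 3.78 CPM in Toxf/fPdcd1Cre, against 21.1 and 19.0 CPM and 19.3 and 20.7 CPM in Toxf/f libraries. Neither passed the test (adjusted p = 0.158 for Aire and 0.0666 for Fezf2, edgeR). Over all 12 epithelial markers the sums overlapped, at 1307 to 1624 CPM in Toxf/fPdcd1Cre and 1306 and 1495 CPM in Toxf/f libraries, and 2 were lower, Tnfrsf11a and Krt14. Of the 12 log2 fold changes 8 were below 0 and 4 above, among them Psmb11 at 0.28 and Cldn4 at 0.13, which did not pass. The sums of 10 endothelial and mesenchymal markers, at 717 to 862 CPM in Toxf/fPdcd1Cre and 773 and 789 CPM in Toxf/f libraries, and of 10 double-positive thymocyte markers, at 8699 to 11508 CPM in Toxf/fPdcd1Cre and 9040 and 11008 CPM in Toxf/f libraries, overlapped too. Those of 10 double-negative markers were 5206 to 6361 CPM in Toxf/fPdcd1Cre and 4964 and 5301 CPM in Toxf/f libraries, with 2 lower, Cd44 and Il7r. No marker on any list was at 0 in all libraries. Other markers past the threshold were S1pr1 at -1.73 and Klf2 at -1.23 for mature T cells, H2-Eb1 at -0.91, Cd74 at -0.74 and Flt3 at -1.05 for dendritic cells, Igkc at -3.45 for B cells and Lef1 at -0.70 for double-positive thymocytes. Among the most abundant markers Rag1 at 0.23, Notch1 at 0.40, Tcf7 at -0.04, Cd8a at 0.17, Il2ra at 0.13, H2-Aa at -0.74, Ighm at -0.23, Lyz2 at -1.12, C1qb at -0.26, Ccl25 at 0.15, Krt8 at 0.18, Vcam1 at 0.01 and Pecam1 at -0.01 did not pass. Any part that shifts in these cells have in the fall of the NF-kappa B genes was not tested.

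**Figure D5:**
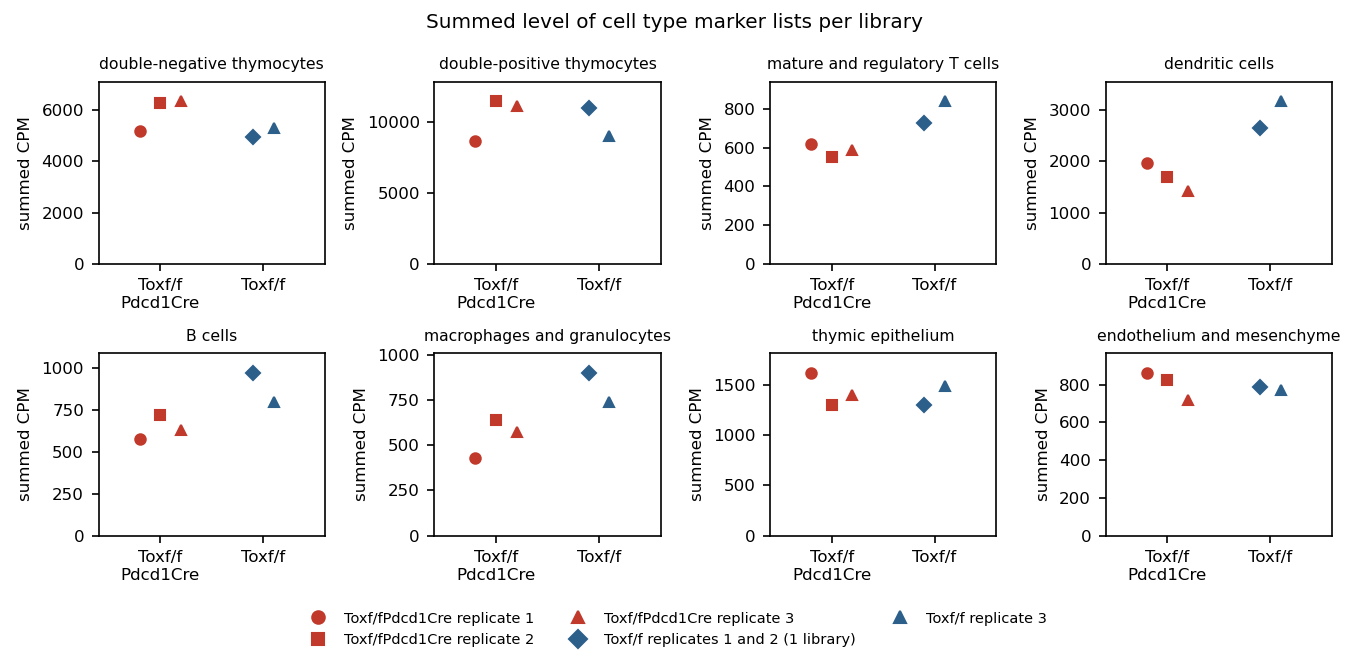
Summed CPM (y axes from 0) of marker lists of 8 cell types, with 3 Toxf/fPdcd1Cre libraries in red at the left of each panel and 2 Toxf/f libraries in blue at the right. Red points lie below blue points for mature and regulatory T cells, dendritic cells, B cells, and macrophages and granulocytes, and overlap with them in the other panels.

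The mean profile of the 10 genes over the 5 libraries, in log2 CPM centred on each gene's mean, stood at -0.22, -0.22 and -0.29 in Toxf/fPdcd1Cre and 0.31 and 0.42 in Toxf/f libraries. Among 9060 genes outside all lists with a mean of at least 10 CPM, those closest to it were Tbc1d8, Myo6, B4galnt1, C1ra and Cmtm3. Their root mean square difference from it was 0.0334 to 0.0562 over 5 libraries, which describes likeness only.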

How the data were processed

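Each sample had 1 deposited table of genes, whose estimated count and FPKM columns are named per the file headers. Fastp 0.18.0, HISAT2 and StringTie 1.3.1 are named in the submitters' processing notes; which step made the counts, and on which genome build, was not given in the sources used here. Between 8.81% and 9.84% of genes per library had a count that was not whole, so the deposited expected counts were rounded.

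Genes were filtered with filterByExpr, scaled by TMM and tested with edgeR 4.0.16 in R 4.3.3 by its quasi-likelihood test over all 14121 genes, with Benjamini-Hochberg adjustment. SE is the log2 fold change divided by the root of the F statistic. The test was checked on simulated counts. Alternatives used limma 3.58.1, DESeq2 1.42.0 and other settings listed in the closing section. Replicate numbers were not taken as pairs.

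The 10 genes and all lists were chosen with earlier results of these data known. From each pathway list the genes past the threshold were named, up to 6, or else the 2 with the smallest p; from each cell type list those past it and the 2 highest, of which 1 is not reported here. Cd40, Tnfrsf1b, Tnf, Bcl2l1, Cflar, Birc2, Aire, Fezf2, Psmb11, Cldn4, Ctla4 and Ikzf2 were added after their values were seen. Gene positions come from GENCODE M21 on GRCm38, promoters from RefSeq on GRCm38.p6, and neither need be the files' own build. Figures were drawn with matplotlib 3.10.9.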

Additional observations from a re-analysis of the deposited data

How the results depend on the processing

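The count of lower genes among the 10 stayed at 4 or 5 with RLE or upper-quartile scaling, no filter, at least 10 CPM in 2 libraries, DESeq2, limma-voom, the replicate block and the identical files counted as 2 libraries. It was 3 with limma on log2(FPKM + 1) or log2(FPKM + 0.1) and with age as a covariate, 0 with limma on log2(FPKM + 1) without a filter, and 0 to 5 with 1 library left out; 0 were higher in every fit. Lower and higher counts over all tested genes were 213 and 19, and became 159 and 9 with upper-quartile scaling, 369 and 48 with no filter, 117 and 7 with at least 10 CPM, 316 and 43 with DESeq2, 157 and 8 with log2(FPKM + 1), 120 and 6 with log2(FPKM + 0.1), 43 and 1 with no FPKM filter, 116 and 9 with age, 325 and 55 with the identical files kept apart, and 28 to 586 and 2 to 30 with 1 library left out. Lower pathway genes numbered 14, against 2 with no FPKM filter, 8 with age and 3 to 26 with 1 library left out. With the replicate number as a block the all-gene counts were 340 and 95 where the shared Toxf/f library took number 1, and 769 and 99 (29 lower pathway genes) where it took number 2, a numbering chosen after seeing the file's header; all 5 calls held in both. The numbers were not taken as pairs, since deviations of libraries from their genotype means correlated over genes at -0.17 and 0.09 (Toxf/fPdcd1Cre replicates 1 and 2 with the shared Toxf/f library) and at -0.15 (replicates 3). The log2 fold change of Tox was -2.94 to -2.67 with 1 library left out. Tnfaip3 was above 0 in 1 and Rela in 2 of 18 alternatives. The cause of these shifts was not tested, and some of these fits had fewer samples or other genes tested. Counts of the 10 genes ran from 102 to 3025 per library, and 2 Toxf/f libraries limit the precision of every comparison.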

Other observations

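The annotation term for NF-kappa B signalling in the deposited tables, a list used after seeing the data, gave another view of the pathway. It names 230 genes, of which 107 were tested besides the 10 subunit, inhibitor and target genes, and 17 of these were lower and 0 higher, against 1.51% lower and 0.135% higher of all tested genes. Of the 17, 7 are immunoglobulin heavy chain genes and 4 stand on the pathway lists above. Without immunoglobulin genes 10 of 93 were lower, a count that holds Ccl21b and Gm10591, whose values were identical, as 2 genes. Among them, chosen after their values were seen, Ccl19, a chemokine that attracts cells with CCR7, was at -2.16 and Bcl2, an inhibitor of apoptosis, at -1.08 on the log2 scale (adjusted p = 0.00366 and 0.00240, edgeR). Without the shared Toxf/f library or Toxf/f replicate 3 the adjusted p of Ccl19 was 0.0849 and 0.111, and that of Bcl2 was 0.0552 and 0.0587.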
